A study of Mus musculus with 10 samples.

Results

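Interferon response genes were followed across sorted blood progenitors of mice that had all been injected with poly(I:C), a synthetic double-stranded RNA. The set holds 39 genes, chosen by name as genes known to be induced by interferon or double-stranded RNA, and all 39 were among the 38086 gene IDs present in both count tables. Total RNA was sequenced from bone marrow of C57BL/6 mice at 12 months of age, in 10 libraries. Blood stem cells and multipotent progenitors lie in the LSK gate, which takes cells without lineage markers that carry both Sca1 and cKit. GMP, the granulocyte-macrophage progenitors that go on to make myeloid cells, were sorted as cells without lineage markers or Sca1 but with cKit, CD34 and FcgR. Dnmt3a, which encodes a DNA methyltransferase, was floxed in the mice of every group, and every mouse received 5 intraperitoneal injections of poly(I:C). KO mice also carried the Mx1-Cre transgene, a Cre recombinase under an interferon-responsive promoter, whereas CTRL mice had no Cre. Presence of Cre and loss of Dnmt3a therefore cannot be told apart in any comparison. GMP and LSK each had 2 CTRL and 3 KO libraries, each called by its genotype and title number. No untreated library was analysed here, and the time from injection to harvest was not found (not given in the sources used here). Induction itself was therefore not measured: the values are the levels found at harvest.

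Type I interferons bind the receptor pair Ifnar1 and Ifnar2, whose kinases Jak1 and Tyk2 phosphorylate Stat2 and related factors. Together with Irf9 these bind the interferon-stimulated response element in the promoters of responding genes. Interferon gamma signals through another receptor pair, Ifngr1 and Ifngr2, to the gamma-activated site. In bone marrow, interferon is known to drive quiescent stem cells into cycle, and Ly6a, which encodes the Sca1 protein used to sort LSK cells, is itself an interferon-inducible gene.

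The promoters of the genes, which were chosen as known responders, were searched for the interferon-stimulated response element and the gamma-activated site. RefSeq promoter windows on GRCm38.p6, 250 bases before to 50 after the gene start, were found for 30 of the 39 genes. The interferon-stimulated response element was searched on both strands as GAAA, any 2 bases, then GAAA. It was found in 18 of the 30 genes (60%), against 3.99% of all 27025 genes with a window. The gamma-activated site, TTCNNNGAA, was found on either strand in 10 of 30 (33.3%), against 9.55% of all genes. A match is a run of letters and was not shown to be a binding site. Windows of 60 bases around the match nearest before the start are printed for 6 genes that were higher in LSK than in GMP and for Gbp3, which was lower, so that genes of opposite direction can be compared. Each is written 5′ to 3′ in the direction of its gene, with that nearest match in capitals (as its reverse complement, TTTC, where it lies on the other strand). Further matches in the windows of Ifit1, Isg15 and Gbp3 stay in lower case or run into the capitals.
Ifit1 (chr19:34640779-34640838, plus strand): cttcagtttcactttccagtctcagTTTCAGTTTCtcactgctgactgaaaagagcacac
Ifit3 (chr19:34583382-34583441, plus strand): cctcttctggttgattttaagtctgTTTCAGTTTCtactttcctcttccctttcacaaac
Oas3 (chr5:120777700-120777759, minus strand): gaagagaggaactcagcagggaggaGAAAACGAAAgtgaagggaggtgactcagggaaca
Rsad2 (chr12:26456538-26456597, minus strand): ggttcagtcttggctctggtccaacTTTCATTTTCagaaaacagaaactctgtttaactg
Isg15 (chr4:156200850-156200909, minus strand): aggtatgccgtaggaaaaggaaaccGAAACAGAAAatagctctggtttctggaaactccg
Gbp2 (chr3:142620579-142620638, plus strand): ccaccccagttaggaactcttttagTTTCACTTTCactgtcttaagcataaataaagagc
Gbp3 (chr3:142559980-142560039, plus strand): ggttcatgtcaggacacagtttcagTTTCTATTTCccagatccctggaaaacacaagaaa
Gbp2 and Gbp3, neighbours in 1 gene cluster, both have their nearest match close to the start, 59 and 39 bases before it. The nearest matches of Isg15, Oas3 and Ifit1 begin 66, 75 and 85 bases before the start, and those of Rsad2 and Ifit3 120 and 122 bases before it. Ifi44 and Rtp4, which had the largest differences between CTRL populations, are not among these: no match lay in the window of Ifi44, and Rtp4 had no entry.

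Depth was 93850256 to 122658636 gene counts per GMP library and 29533371 to 30437981 per LSK library. Dnmt3a itself stood at 143 and 115 CPM in GMP CTRL, 51.7, 65.9 and 20.5 in GMP KO, 151 and 145 in LSK CTRL, and 55.5, 51.2 and 57.1 in LSK KO, lower in every KO library than in every CTRL library of its population. Its log2 fold change was −1.43 ± 0.08 (SE) in LSK (edgeR adjusted p = 0.000106) and −1.50 ± 0.42 in GMP (adjusted p = 0.3, and 0.0493 without KO-352). In a joint fit of all 10 libraries the LSK value was −1.44 and did not pass the threshold of 0.05. The labelled populations were checked on markers: Mpo, a granule enzyme of GMP, stood at 8062 to 14789 CPM (counts scaled to a common library size) in GMP and 1043 to 1342 in LSK, and Ly6a at 0.931 to 1.97 and 17.8 to 21.8. The description field of GMP library KO-352 refers to LSK data, but its title says GMP and its Mpo (12163 CPM) and Ly6a (1.76 CPM) lay within the range of the other GMP libraries. Counts of Xist and of a Y-linked gene were those of males in the whole GMP table and in LSK CTRL-1326 and KO-1327, and those of females in LSK CTRL-1330, KO-1333 and KO-1334.

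The genes spanned a wide range of levels at harvest. Per kb of exon, the median gene of the set stood at 4.26 CPM per kb in GMP and 8.38 in LSK, at the 56.6th and 69.4th percentile of 18744 genes ranked the same way. In GMP 12 of the 39 were above 10 CPM per kb and 16 under 1, and in LSK 17 were above 10 and 4 under 1. The most abundant per kb were Ifitm3, which encodes a membrane protein that blocks virus entry, with 73.3 CPM per kb in GMP (libraries 34.5 to 114) and 127 in LSK (104 to 138), and Ifitm1 of the same family, with 47.7 (21.2 to 67.7) and 101 (81.4 to 134). The ranges of Ifitm1 and Ifitm3 overlapped in both populations. In GMP the lowest was Ifi44 (0.0527 CPM per kb) and in LSK Cxcl10, a chemokine (0.207). Isg15, a ubiquitin-like modifier and one of the most used indicators of an ongoing response, stood at only 0.651 CPM per kb in GMP and 3.22 in LSK, and Mx1, whose promoter drives the Cre transgene, at 0.843 and 0.899. All other levels are CPM per library and, unless given per kb, are compared between libraries of 1 gene only.

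**Figure D1:**
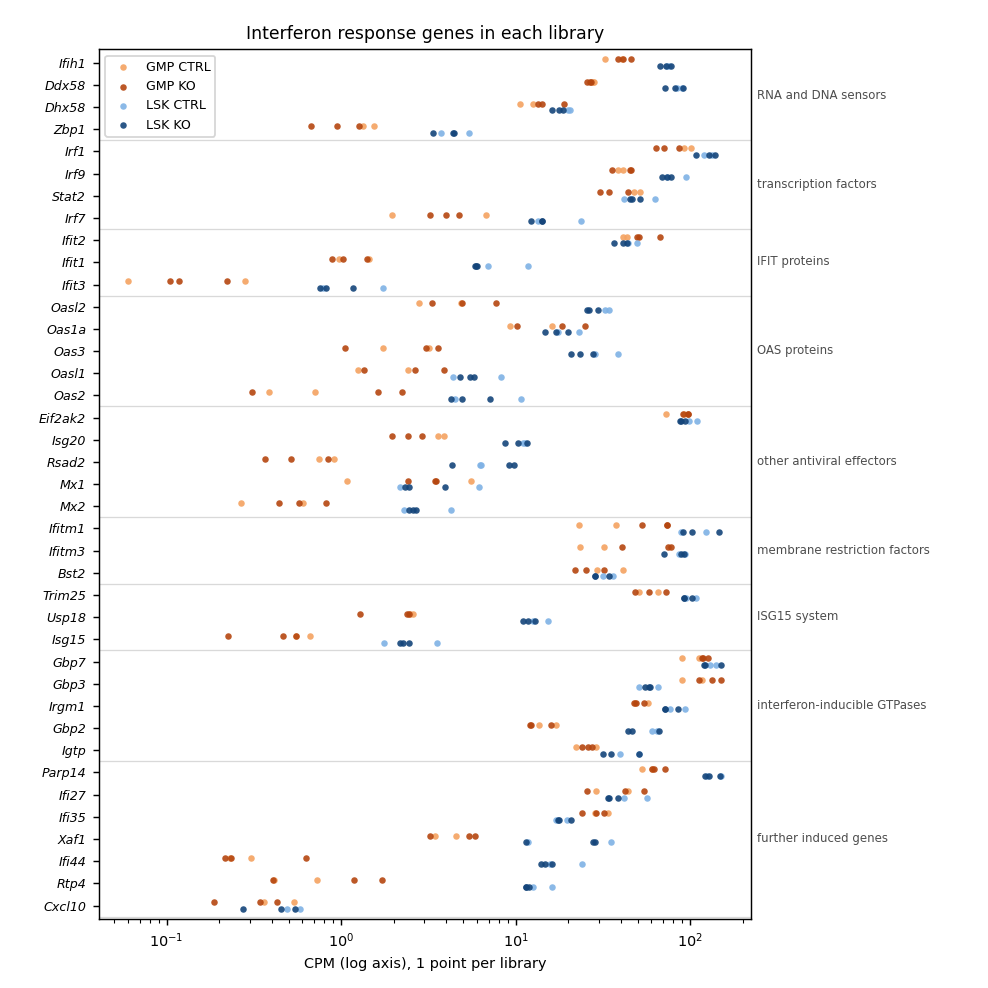
CPM of the 39 genes (1 line per gene, grouped by role) in each of the 10 libraries, 1 point per library on a log axis, coloured by population and genotype. For Ifi44 the GMP points lie at 0.216 to 0.630 CPM and the LSK points at 14.0 to 23.9, whereas for Gbp3 and Ifi35 every LSK point lies below every GMP point.

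Most of the genes were higher in LSK than in GMP, in CTRL and in KO mice alike. In CTRL, 29 of the 39 were higher in LSK and 2 lower, against 28.2% and 27.3% of the 18836 genes tested, and the median log2 fold change was 1.57 against 0.12 for all genes. In KO, 26 were higher and 3 lower, against 30.7% and 30.1% of all genes, with a median of 0.79 against 0.081. These comparisons share no library, but both come from the joint fit of all libraries, so they are not independent. Leaving out a KO library could change a call in CTRL, as it did for Eif2ak2 and Irf1. Of the genes, 25 were higher in both comparisons and 2, Gbp3 and Ifi35, lower in both. Every LSK library was above every GMP library for 26 genes of the set and below for 2, against 28.6% and 27.6% of all genes. Bst2, Cxcl10, Ifi27, Mx1, Oas1a and Stat2 were called in neither comparison. The populations also differ in count table, annotation and depth, and these cannot be told apart from them. Mitochondrial genes held 1.27% to 2.39% of gene counts in GMP libraries and 0% in every LSK library. Scaling by upper quartile moved the median of all genes from 0.12 to 0.33 in CTRL and the split of calls over all genes from 5303 higher and 5139 lower to 6593 and 3946. The genes of the set then had a median of 1.78, with 30 higher and 2 lower. In KO the same scaling moved the median of all genes from 0.081 to 0.25 and that of the set to 0.97.

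**Figure D2:**
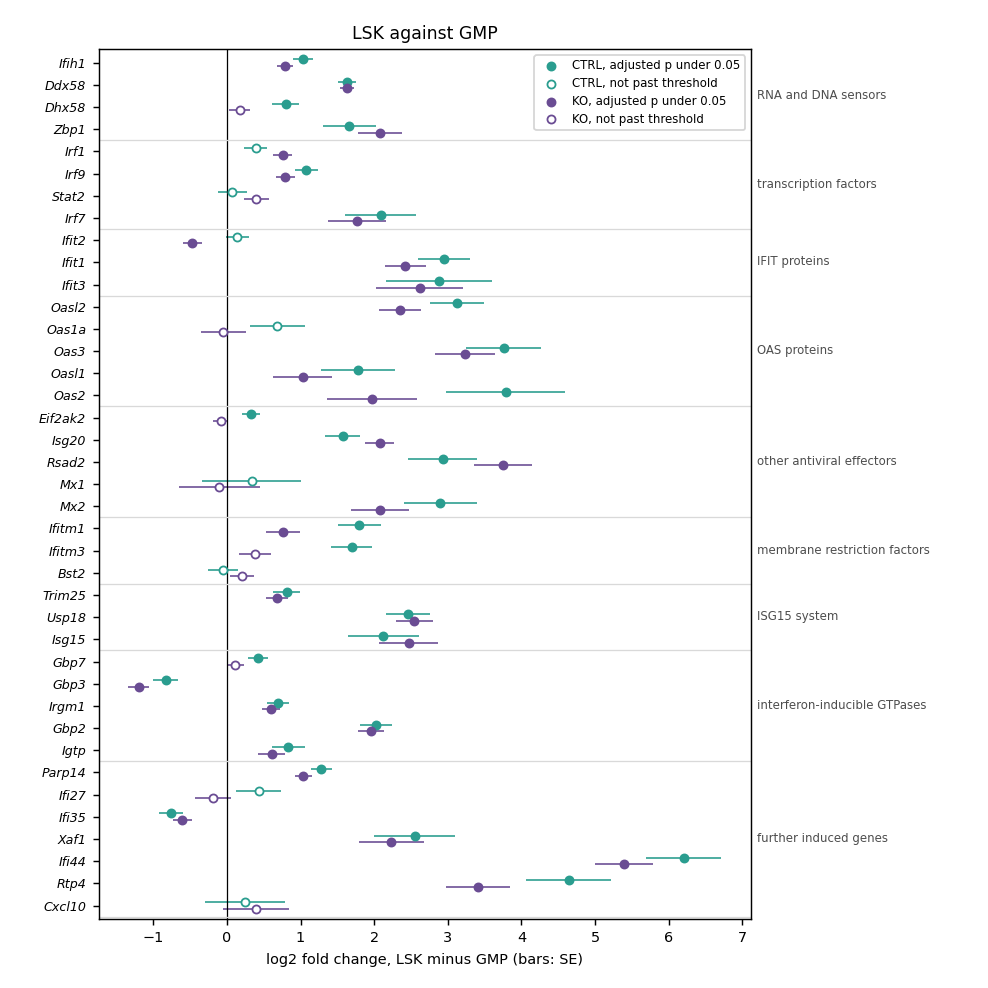
Log2 fold change of LSK minus GMP for the 39 genes in CTRL and in KO mice, with the standard error as bars and filled points for adjusted p under 0.05. In both genotypes Ifi44 lies farthest to the right, at 6.20 and 5.39, and Gbp3 farthest to the left, at −0.83 and −1.20.

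Among the sensors of foreign nucleic acid, 4 of 4 were higher in LSK in CTRL and 3 of 4 in KO. Ddx58, which encodes the RNA sensor RIG-I, stood at 27.6 and 28.2 CPM in GMP CTRL, 26.9, 25.5 and 26.6 in GMP KO, 89.8 and 83.8 in LSK CTRL, and 91.3, 81.4 and 71.6 in LSK KO. All LSK values lay at or above 71.6 CPM and all GMP values at or under 28.2. The log2 fold change was 1.64 ± 0.12 (SE) for CTRL and 1.63 ± 0.10 for KO (adjusted p = 3.29e-06 and 4.28e-07). Ifih1, the gene of MDA5, which senses long double-stranded RNA such as poly(I:C), had 32.6 to 46.0 CPM in GMP and 67.1 to 77.3 in LSK, without overlap, and fold changes of 1.03 ± 0.13 and 0.79 ± 0.11 on the log2 scale (adjusted p = 0.000103 and 0.000109). Zbp1, a sensor of Z-form nucleic acid, was low in both populations, at 0.677 to 1.55 and 3.38 to 5.37 CPM, and higher in LSK in both comparisons (1.66 and 2.08). Dhx58, the gene of the regulator LGP2, was called in CTRL alone (0.80 ± 0.18, adjusted p = 0.00378); its value in KO was 0.17 ± 0.15, and the difference between these was not past the threshold (interaction adjusted p = 0.444).

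Of the transcription factors, Irf7 and Irf9 were higher in LSK in both comparisons, Irf1 in KO and Stat2 in neither. Irf7, the factor that amplifies type I interferon production, stood at 1.95 and 6.79 CPM in GMP CTRL, 4.72, 3.99 and 3.22 in GMP KO, 13.4 and 23.8 in LSK CTRL, and 14.2, 12.3 and 14.2 in LSK KO. The GMP libraries overlapped between genotypes, and the lowest LSK library was above the highest GMP library. Its log2 fold changes were 2.09 ± 0.48 for CTRL and 1.77 ± 0.39 for KO (adjusted p = 0.00404 and 0.00263). Irf9, a DNA-binding partner of Stat2, had 35.8 to 45.8 CPM in GMP and 68.8 to 95.01 in LSK, with fold changes of 1.08 ± 0.16 and 0.79 ± 0.13 (adjusted p = 0.000223 and 0.000313). Irf1, a factor induced early by interferon gamma, had 63.6 to 101 and 108 to 138 CPM, with 0.76 ± 0.13 in KO (adjusted p = 0.000512) and 0.39 ± 0.16 in CTRL (adjusted p = 0.0553). In CTRL Irf1 was called in 5 of 17 alternatives, among them upper quartile scaling (adjusted p = 0.00752), thinned counts (0.0338) and the fit without GMP KO-352 (0.0241), so a call in KO alone depends on the setting. Stat2 overlapped between populations, at 30.5 to 51.7 and 41.8 to 62.9 CPM, and its fold changes were 0.074 ± 0.20 and 0.40 ± 0.17 (adjusted p = 0.77 and 0.0565).

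The IFIT proteins bind foreign RNA and block its translation, and their genes did not move as 1 group. Ifit1 stood at 1.45 and 0.968 CPM in GMP CTRL, 1.03, 0.884 and 1.4 in GMP KO, 6.94 and 11.8 in LSK CTRL, and 5.88, 5.90 and 6.00 in LSK KO. Every LSK library was at least 5.88 CPM and no GMP library was above 1.45. The log2 fold change was 2.95 ± 0.35 for CTRL and 2.42 ± 0.28 for KO (adjusted p = 6.74e-05 and 3.85e-05). Ifit3, with 5 to 23 reads per GMP library and 25 to 60 per LSK library, stood at 0.0605 to 0.280 and 0.757 to 1.73 CPM, and higher in LSK by 2.88 ± 0.72 and 2.62 ± 0.59 (adjusted p = 0.0065 and 0.003). Per kb Ifit2 was the most abundant of the 3 in both populations (12.9 and 10.9 CPM per kb, against 0.432 and 2.75 for Ifit1 and 0.0899 and 0.604 for Ifit3), and it went the other way in KO. It stood at 43.4 and 41.4 CPM in GMP CTRL, 50.9, 67.1 and 49.6 in GMP KO, 49.9 and 43.7 in LSK CTRL, and 43.6, 41.0 and 36.5 in LSK KO, and the highest library was GMP KO-179. Its fold change was −0.47 ± 0.13 in KO (adjusted p = 0.00832; 0.0669 after upper quartile scaling and 0.215 in male libraries alone) and 0.14 ± 0.15 in CTRL (adjusted p = 0.451).

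The OAS proteins make the messenger that activates RNase L when they meet double-stranded RNA. Of the 5 genes grouped here, which include the OAS-like Oasl1 and Oasl2, 4 were higher in LSK in each genotype. The median log2 fold changes of the 5 were 3.13 in CTRL and 1.97 in KO. The exception was Oas1a, whose sign in KO flipped under upper quartile scaling. Oas3 stood at 3.20 and 1.74 CPM in GMP CTRL, 3.06, 1.05 and 3.58 in GMP KO, 28.4 and 38.5 in LSK CTRL, and 23.5, 27.9 and 20.7 in LSK KO, so that the lowest LSK library held over 5 times the CPM of the highest GMP library. Its fold change was 3.76 ± 0.51 and 3.23 ± 0.41 on the log2 scale (adjusted p = 0.000148 and 6.17e-05). Oasl2, an OAS-like gene, stood at 4.86 and 2.81 CPM in GMP CTRL, 4.95, 3.33 and 7.71 in GMP KO, 32.7 and 34.3 in LSK CTRL, and 29.6, 25.6 and 26.5 in LSK KO, again without overlap, with fold changes of 3.13 ± 0.36 and 2.35 ± 0.29 (adjusted p = 5.45e-05 and 4.99e-05). Oas2 varied more between libraries, with 0.707 and 0.387 CPM in GMP CTRL, 2.25, 0.307 and 1.63 in GMP KO, 4.48 and 10.7 in LSK CTRL, and 4.28, 4.93 and 7.13 in LSK KO. Its lowest LSK value, 4.28 CPM, was above its highest GMP value, 2.25, and the fold changes were 3.79 ± 0.81 and 1.97 ± 0.61 (adjusted p = 0.00265 and 0.0167). Oasl1 was higher by 1.78 ± 0.50 and 1.03 ± 0.40 (adjusted p = 0.0118 and 0.0456). Oas1a, at 9.30 to 24.9 CPM in GMP and 14.7 to 23.1 in LSK, overlapped and was not called (0.68 ± 0.38 and −0.049 ± 0.31, adjusted p = 0.145 and 0.899).

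Among the other antiviral effectors, Rsad2, Isg20 and Mx2 were higher in LSK in both genotypes, and Mx1 in neither. Rsad2, the gene of viperin, which makes a chain-terminating nucleotide, stood at 0.743 and 0.907 CPM in GMP CTRL, 0.365, 0.514 and 0.840 in GMP KO, 6.24 and 6.36 in LSK CTRL, and 9.74, 4.33 and 9.11 in LSK KO. GMP values were all under 1 CPM and LSK values all above 4, with fold changes of 2.93 ± 0.47 for CTRL and 3.75 ± 0.39 for KO (adjusted p = 0.000431 and 1.73e-05). Isg20, a 3′ exonuclease, had 1.95 to 3.91 and 8.71 to 11.6 CPM and fold changes of 1.57 ± 0.24 and 2.07 ± 0.20 (adjusted p = 0.000324 and 9.09e-06). Mx2, annotated as a polymorphic pseudogene, had 0.268 to 0.819 and 2.28 to 4.25 CPM and was higher by 2.90 and 2.08. Its neighbour Mx1, of the dynamin-like GTPase family, stood at 1.08 and 5.52 CPM in GMP CTRL, 3.49, 3.45 and 2.40 in GMP KO, 2.16 and 6.15 in LSK CTRL, and 2.46, 2.33 and 3.92 in LSK KO. Whether either gene gave a working protein in these mice was not tested. The highest and the lowest Mx1 value of GMP came from the 2 CTRL libraries, and all LSK values but 1 lay inside the GMP range. Its fold changes were 0.33 ± 0.67 and −0.10 ± 0.55 (adjusted p = 0.688 and 0.882). Eif2ak2, the gene of the kinase PKR that halts translation, had 72.9 to 97.5 and 87.3 to 109 CPM. It was called higher in CTRL by 0.33 ± 0.12 (adjusted p = 0.0383), a call that was lost in 12 of 17 alternatives (adjusted p 0.0026 to 0.37 over all of them), and stood at −0.085 ± 0.10 in KO (adjusted p = 0.471).

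Of the membrane restriction factors, Ifitm1 was higher in LSK in both genotypes and Ifitm3 in CTRL. Ifitm1 stood at 23.2 and 37.8 CPM in GMP CTRL, 74.0, 52.7 and 73.3 in GMP KO, 122 and 89.03 in LSK CTRL, and 91.3, 146 and 102 in LSK KO. The 2 GMP CTRL libraries were the lowest of all 10, and every LSK library was above every GMP library. The fold change was 1.79 ± 0.29 for CTRL and 0.76 ± 0.23 for KO (adjusted p = 0.000496 and 0.0153; the second 0.0700 without LSK KO-1333). Ifitm3 stood at 32.0 and 23.4 CPM in GMP CTRL, 77.5, 40.8 and 74.8 in GMP KO, 93.3 and 86.1 in LSK CTRL, and 70.3, 92.7 and 88.3 in LSK KO; its GMP KO range reached into the LSK range. Fold changes were 1.70 ± 0.28 (adjusted p = 0.000537) and 0.38 ± 0.22 (adjusted p = 0.161). Bst2, which tethers budding virions, overlapped between populations, at 21.9 to 41.1 and 28.3 to 36.1 CPM (−0.055 ± 0.20 and 0.20 ± 0.17, adjusted p = 0.832 and 0.307).

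All 3 genes of the ISG15 system were higher in LSK in both genotypes. Usp18, the protease that removes ISG15 from proteins and also restrains the interferon receptor, stood at 2.60 and 2.49 CPM in GMP CTRL, 2.46, 1.28 and 2.39 in GMP KO, 12.6 and 15.3 in LSK CTRL, and 12.9, 11.1 and 11.8 in LSK KO. No GMP library exceeded 2.60 CPM and no LSK library was under 11.1, with fold changes of 2.46 ± 0.30 and 2.54 ± 0.25 (adjusted p = 7.87e-05 and 1.01e-05). Isg15 stood at 0.548 and 0.665 CPM in GMP CTRL, 0.554, 0.226 and 0.467 in GMP KO, 1.77 and 3.53 in LSK CTRL, and 2.46, 2.18 and 2.26 in LSK KO, on 25 to 55 reads per GMP library and 58 to 122 per LSK library. All GMP values lay under all LSK values, and the fold changes were 2.12 ± 0.48 and 2.47 ± 0.40 (adjusted p = 0.00377 and 0.000364). Trim25, a ligase for ISG15 and a co-factor of RIG-I, had 48.2 to 72.8 and 92.5 to 108 CPM and smaller fold changes, 0.81 ± 0.18 and 0.68 ± 0.15 (adjusted p = 0.00368 and 0.00253).

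The interferon-inducible GTPases, which attack the vacuoles of intracellular microbes, divided by gene. Gbp2 stood at 13.6 and 17.1 CPM in GMP CTRL, 12.2, 15.9 and 12.1 in GMP KO, 64.8 and 60.6 in LSK CTRL, and 65.9, 46.3 and 44.1 in LSK KO, with no overlap and fold changes of 2.03 ± 0.22 and 1.96 ± 0.18 (adjusted p = 3.06e-05 and 5.65e-06). Gbp3, its neighbour, stood at 116 and 89.8 CPM in GMP CTRL, 133, 112 and 151 in GMP KO, 51.0 and 65.0 in LSK CTRL, and 58.1, 59.2 and 55.3 in LSK KO. Here every LSK library was below every GMP library, and the fold changes were −0.83 ± 0.17 and −1.20 ± 0.14 (adjusted p = 0.00213 and 3.84e-05). Gbp7 had 90.0 to 126 and 119 to 150.1 CPM and was called in CTRL alone (0.42 ± 0.14, adjusted p = 0.0246; 0.213 without GMP CTRL-350 and 0.131 without LSK CTRL-1330; 0.12 ± 0.11 in KO, adjusted p = 0.394). The immunity-related GTPases Igtp and Irgm1 were higher in LSK in both genotypes, by 0.83 and 0.61 and by 0.69 and 0.60. Igtp shares 8.01% of its exon bases with Irgm2 on the same strand, and Gbp7 shares 11.4% with Gm43802. Reads there could be left out of the counts as ambiguous.

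The remaining genes held the largest differences. Ifi44, a cytoplasmic protein gene used as an interferon indicator, stood at 0.305 and 0.230 CPM in GMP CTRL, 0.232, 0.216 and 0.630 in GMP KO, 15.7 and 23.9 in LSK CTRL, and 16.2, 14.8 and 14.0 in LSK KO, on 19 to 54 reads per GMP library and 488 to 827 per LSK library. Its mean in LSK was 74.2 times that of GMP in CTRL and 41.7 times in KO, with fitted log2 fold changes of 6.20 ± 0.51 and 5.39 ± 0.40 (adjusted p = 6.05e-06 and 1.56e-06). Rtp4, the gene of a receptor-transporting chaperone, stood at 0.731 and 0.411 CPM in GMP CTRL, 1.185, 0.406 and 1.72 in GMP KO, 12.5 and 16.1 in LSK CTRL, and 11.5, 11.9 and 11.5 in LSK KO, with fold changes of 4.64 ± 0.57 and 3.41 ± 0.44 (adjusted p = 8.18e-05 and 7.36e-05). Both were separated by more than 6 CPM between the populations in every pair of libraries. Rtp4 shares 13.9% of its exon bases with Gm45338 on the same strand, and the part of this overlap was not tested. Xaf1, a promoter of apoptosis, was higher in LSK by 2.55 and 2.23, and Parp14, a mono-ADP-ribosyltransferase, at 52.7 to 71.9 and 122 to 149.6 CPM, by 1.28 ± 0.14 and 1.04 ± 0.12 (adjusted p = 4.13e-05 and 2.66e-05). Ifi35 went the other way. It stood at 33.8 and 28.4 CPM in GMP CTRL, 28.8, 24.0 and 31.9 in GMP KO, 17.0 and 19.7 in LSK CTRL, and 17.7, 17.4 and 20.6 in LSK KO, and all LSK values lay below all GMP values, with fold changes of −0.76 ± 0.16 and −0.60 ± 0.13 (adjusted p = 0.00266 and 0.00265); 16.8% of its exon bases are shared with the antisense gene Gm11626, and whether strand was used in counting is unknown (not given in the sources used here). Ifi27 (25.5 to 54.1 and 34.0 to 56.7 CPM) and Cxcl10 (0.187 to 0.536 and 0.272 to 0.578) overlapped between populations, with fold changes of 0.43 ± 0.30 and −0.19 ± 0.25 and of 0.24 ± 0.54 and 0.40 ± 0.45 (adjusted p = 0.247, 0.525, 0.719 and 0.466).

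Other measures moved with population as well. In sorted bulk samples fewer cells of a type and less RNA per cell cannot be told apart. The summed level of 9 dendritic cell markers was 35.9 to 237 CPM in GMP and 464 to 632 in LSK, of which Flt3, also a progenitor gene, held 397.8 to 519.8 in LSK. Siglech, a defining marker of plasmacytoid dendritic cells, stood at 0.0350 to 1.20 CPM in GMP and 2.40 to 6.79 in LSK. The sum of 6 B cell markers was 35.9 to 47.4 CPM in GMP and 48.0 to 91.3 in LSK, and that of 9 monocyte and macrophage markers 471 to 789.7 and 92.7 to 147, although C1qa, a macrophage gene, was at 0.0122 to 0.487 CPM in GMP and 1.14 to 4.63 in LSK. The 8 erythroid and megakaryocyte markers summed to 45.3 to 154 CPM in GMP and 371 to 495 in LSK, and the 8 mature neutrophil markers to 630.4 to 4852 and 147 to 255. The 8 T and NK cell markers summed to 283 to 508 CPM in GMP and 84.3 to 124 in LSK, but nearly all of this was Nkg7, a cytotoxic granule gene (275 to 508 and 78.8 to 115 CPM); by count 5 of the 8 were higher and 1 lower in LSK in CTRL and 3 and 2 in KO. The 6 stromal markers summed to 137 to 161 and 119 to 139 CPM, nearly all of it Pecam1, an endothelial gene that blood cells also express (137 to 161 and 117 to 134); by count 3 of the 6 were higher and 0 lower in CTRL and 3 and 1 in KO. Of all these markers, Cd3e, Ncr1 and Col3a1 had 0 reads in GMP CTRL. Their part in the difference was not tested. After GMP counts were thinned to the LSK depth, 31 of the 31 called genes of the set in CTRL and 29 of 29 in KO were still called. Thinning lowers the number of reads but leaves expected ratios unchanged, so it could not test whether depth set the direction. In male libraries alone, with 1 LSK library in CTRL and in KO, 19 genes of the set were higher and 2 lower in CTRL (16.1% and 16.8% of all genes) and 22 and 1 in KO (16.9% and 19.5%), with medians of 1.26 and 0.91. The calls lost there were those of Dhx58, Eif2ak2, Gbp7, Ifit3, Irf7, Isg15, Oas2, Oasl1, Trim25 and Zbp1 in CTRL and of Ifi35, Ifit2, Ifitm1, Oas2, Oasl1 and Trim25 in KO, each with its direction kept. Oasl1 was also lost without GMP CTRL-350 or LSK CTRL-1330 in CTRL and without any 1 KO library but GMP KO-352 in KO, and Igtp without GMP CTRL-350 or LSK CTRL-1330 in CTRL and without GMP KO-178 or LSK KO-1327 in KO. Ifit3 in CTRL was lost without LSK CTRL-1330, and Oas2 in KO without LSK KO-1334.

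By genotype, no gene of the set passed the threshold in GMP. By edgeR 0 of 39 differed at adjusted p under 0.05, against 0.0347% of the 17290 genes tested, and 5 at unadjusted p under 0.05, against 13.8%. The median log2 fold change of KO minus CTRL was 0.030, against 0.011 for all genes, with 22 genes positive and 17 negative. All KO libraries lay above both CTRL libraries for 5 genes (Dhx58, Ifit2, Ifitm1, Ifitm3 and Gbp7) and below both for 7 (Ddx58, Zbp1, Irf1, Stat2, Isg20, Isg15 and Usp18), against 16.5% and 15.1% of all genes. The smallest p-values on the higher side belonged to Ifitm1 (30.5 ± 10.3 CPM, SD, n = 2, in CTRL and 66.7 ± 12.1, n = 3, in KO) and Ifitm3 (27.7 ± 6.05 and 64.4 ± 20.4), with log2 fold changes of 1.12 ± 0.24 and 1.20 ± 0.30 (edgeR adjusted p = 0.26 and 0.271). DESeq2 called these 2 genes and no other of the set (adjusted p = 0.00108 and 0.0048), in a fit that called 4.07% of all genes, and limma-voom called 0. Ifit2 followed on the higher side (0.39 ± 0.16, adjusted p = 0.355). On the lower side were Stat2 (−0.47 ± 0.17, adjusted p = 0.334), Irf1 (−0.40 ± 0.15, 0.336) and Isg20 (−0.64 ± 0.27, 0.363). All 5 OAS and OAS-like genes had positive values, with a median of 0.47 and none past the threshold. Among GMP libraries KO-352 was the highest for 13 genes of the set and KO-179 the lowest for 18, so that KO libraries held both extremes. Irf7 and Mx1 were lowest in CTRL-346 and KO-352, from both genotypes, which also had the least Ltf, a mature neutrophil gene (2.30 and 4.24 CPM, against 123, 196 and 215 in the others). The same 2 libraries had the smallest share of reads outside genes (8.502% and 10.3%, against 14.2% to 16.1%), the smallest mitochondrial share (1.27% and 1.48%, against 1.94% to 2.39%) and the lowest sum of erythroid and megakaryocyte markers (59.6 and 45.3 CPM, against 124 to 154). The part of these measures in the result was not tested.

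**Figure D3:**
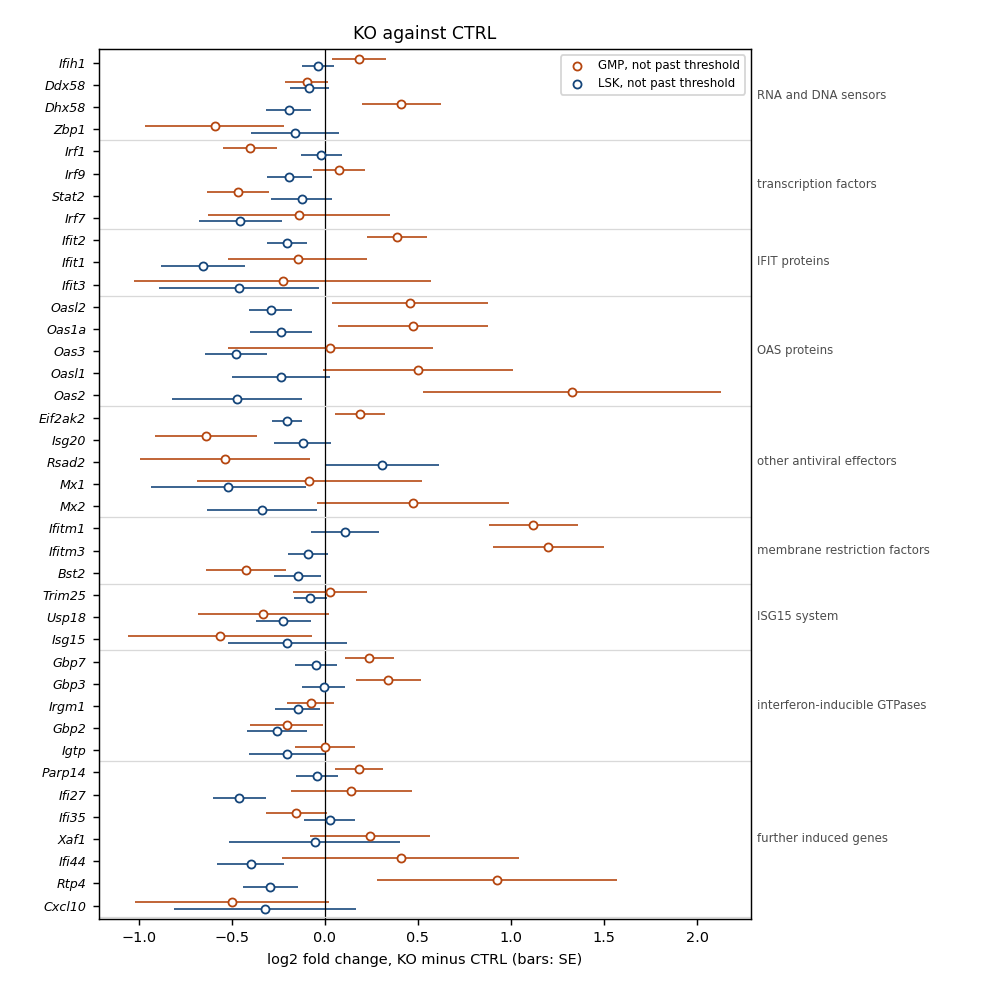
Log2 fold change of KO minus CTRL for the 39 genes in GMP and in LSK, with the standard error as bars; open points mark adjusted p at or above 0.05, which holds for every gene. In GMP Ifitm1 lies at 1.12 and Ifitm3 at 1.20, and 36 of the 39 LSK points lie left of 0.

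In LSK too no gene of the set passed the threshold by genotype. By edgeR 0 of 39 were called (adjusted p = 0.9998 for each), against 0.0232% of 17238 genes, and DESeq2 and limma-voom also called 0. At unadjusted p under 0.05 there were 5 (Ifit1, Oas3, Oasl2, Eif2ak2 and Ifi27), against 2.83% of all genes, and all 5 were negative. Of the 39, 36 had a negative log2 fold change, against 49.2% of all genes, and the median was −0.20 against 0.0027. All KO libraries lay below both CTRL libraries for 8 genes (Dhx58, Ifit1, Ifit2, Oas3, Oasl2, Eif2ak2, Ifi27 and Rtp4), against 7.26% of all genes, and above both for 0, against 7.56%. The values were −0.46 ± 0.14 for Ifi27, −0.65 ± 0.22 for Ifit1 and −0.48 ± 0.17 for Oas3; Ifit1 had 9.35 ± 3.41 CPM in CTRL (SD, n = 2) and 5.93 ± 0.0651 in KO (n = 3). The 3 positive values belonged to Rsad2 (0.31 ± 0.31), Ifitm1 (0.11 ± 0.18) and Ifi35 (0.026 ± 0.14).

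The negative median in LSK rested on 1 CTRL library. CTRL-1330 was the highest of the 5 LSK libraries for 28 of the 39 genes (71.8%), whereas it was the highest for 15.8% of all genes. The median deviation of the set from the mean of the 5 libraries was 0.27 in CTRL-1330, −0.048 in CTRL-1326, 0.0050 in KO-1327, −0.12 in KO-1333 and −0.093 in KO-1334, on the log2(CPM + 0.1) scale. Thus CTRL-1326, the other CTRL library, lay among the KO libraries. Without CTRL-1330 the median of KO minus CTRL was 0.019, and without CTRL-1326 it was −0.38. Sex as a term in the fit left it at −0.20, with 0 genes called.

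**Figure D4:**
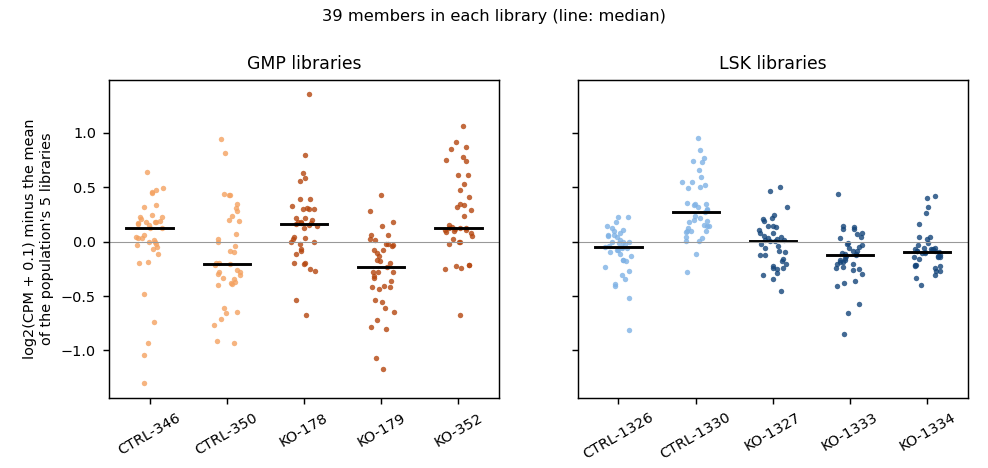
Deviation of each of the 39 genes from the mean of the 5 libraries of its population, as log2(CPM + 0.1), 1 point per gene and a line at the median of each library. CTRL-1330 stands highest in LSK (median 0.27), and in GMP the medians run from −0.23 in KO-179 to 0.16 in KO-178 without order by genotype.

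For no gene of the set did the KO effect pass the threshold for a difference between populations. The interaction, KO effect in LSK minus that in GMP, passed the threshold for 0 of 39 genes by edgeR, against 0.0265% of all genes, with 5 at unadjusted p under 0.05, against 10.1%. The lowest adjusted p was that of Ifitm3 (−1.32 ± 0.35, adjusted p = 0.336), which DESeq2 called (adjusted p = 0.0368), its only call in the set in a fit that called 1.14% of all genes; limma-voom called 0. Ifitm1 (−1.03 ± 0.37, adjusted p = 0.435) and Ifit2 (−0.61 ± 0.20, 0.409) followed. On the positive side were Irf1 (0.36 ± 0.20, 0.552), Isg20 (0.50 ± 0.30, 0.572) and Rsad2 (0.82 ± 0.57, 0.63).

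The genes that carry the interferon signal were followed in the same way, and their counts are read against the same shares of all genes, 28.2% higher and 27.3% lower in CTRL and 30.7% and 30.1% in KO. The ligands were at or near 0: Ifna1, Ifna2, Ifna4, Ifne, Ifnl2 and Ifnl3 had 0 reads in all 10 libraries, which allows up to 0.0271 to 0.0366 CPM in GMP and 0.0846 to 0.0913 in LSK (3 reads, counting error only). The bound holds for counted reads alone. Reads that did not align uniquely, 26.3% to 29.0% in GMP, were left out of the counts. Ifnb1 had 1 read in all, Ifng at most 0.144 CPM and Ifnk at most 0.303. Of 6 receptor genes, 4 were lower in LSK in both genotypes and none higher (27.3% of all genes were lower in CTRL and 30.1% in KO). Ifngr1, the ligand-binding chain of the interferon gamma receptor, stood at 519 and 525 CPM in GMP CTRL, 749, 712 and 679 in GMP KO, 179.7 and 153 in LSK CTRL, and 157, 154 and 135 in LSK KO. The lowest GMP library was above the highest LSK library by more than 300 CPM, with fold changes of −1.65 ± 0.11 and −2.26 ± 0.09 (adjusted p = 1.84e-06 and 4.05e-08). Its partner Ifngr2 was lower by smaller margins (−0.67 and −0.50), as was Ifnar2 (−0.38 and −0.44), whereas Ifnar1 was not called (0.19 ± 0.12 and 0.24 ± 0.10, adjusted p = 0.192 and 0.0517). Of the 4 kinase and STAT genes described, Stat3, which acts downstream of many cytokine receptors, was higher in LSK in both genotypes (0.45 ± 0.10 and 0.33 ± 0.08, adjusted p = 0.00342 and 0.00517), and Tyk2 was lower in CTRL (−0.41 ± 0.13, adjusted p = 0.0244; −0.035 ± 0.11 in KO, adjusted p = 0.796). The call of Tyk2 was lost without any 1 of the 4 CTRL libraries (adjusted p 0.0504 to 0.124), after upper quartile scaling (0.189) and in male libraries alone (0.129). Jak1 and Jak2 were called in neither.

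**Figure D5:**
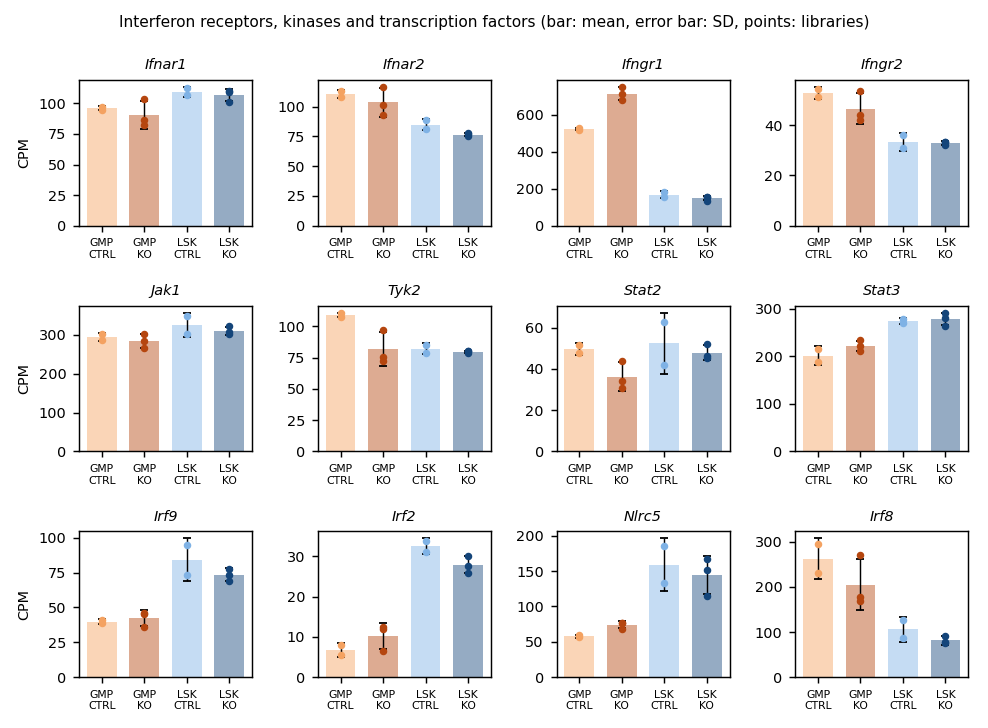
CPM of 12 receptor, kinase and transcription factor genes by group, with bars for the mean, error bars for the SD and points for the libraries (2 CTRL and 3 KO per population; bars start at 0). Ifngr1 is lower in LSK, at 135 to 179.7 CPM, whereas Irf9 and Irf2 are higher there.

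The RNA sensor genes Ifih1 and Ddx58, higher in LSK in both genotypes, were counted in the set and not again here. Among 9 further genes that sense RNA or DNA or relay the signal to interferon, none was higher in LSK in CTRL and 2 in KO (Mavs 0.63 ± 0.15 and Irf3 0.54 ± 0.13, adjusted p = 0.00443 and 0.00461). Lower in both genotypes were Ikbke, an IRF3 kinase (−0.79 and −0.90), and Mb21d1, the gene of the DNA sensor cGAS (−0.51 and −0.32). Upper quartile scaling ended the call of Ikbke in CTRL (adjusted p = 0.0514) and of Mb21d1 in KO (0.145), as did leaving out CTRL-350 (0.0716) or CTRL-1326 (0.0881) for Ikbke and KO-352 (0.0597) or KO-1327 (0.0589) for Mb21d1. Male libraries alone ended the calls of Mavs and Irf3 in KO, of Ifngr2, Tap1 and Tap2 in CTRL, and of Mb21d1 and Stat3 in both genotypes. Of 10 negative regulators, 9 were tested, with 3 higher and 2 lower in CTRL and 4 and 2 in KO, near the shares of all genes. Irf2, a repressor of interferon response elements, stood at 5.52 and 7.92 CPM in GMP CTRL, 12.3, 11.9 and 6.48 in GMP KO, 33.9 and 31.1 in LSK CTRL, and 30.2, 26.0 and 27.6 in LSK KO, without overlap between populations, and its fold changes were 2.27 ± 0.29 and 1.45 ± 0.23 (adjusted p = 9.33e-05 and 0.000293). Nlrc5 was higher by 1.46 ± 0.19 and 0.97 ± 0.15 (adjusted p = 0.00011 and 0.000287), and Socs3, a feedback inhibitor of cytokine receptors, by 3.37 and 2.18. Ptpn2 and Ptpn6, phosphatases that act on JAK kinases, were lower (−0.64 and −0.81, −0.43 and −0.34). Ptpn6 lost its call after upper quartile scaling (adjusted p = 0.128 and 0.133), in male libraries alone, without CTRL-346, CTRL-350 or CTRL-1330 in CTRL (0.05005 to 0.146) and without KO-352, KO-1327 or KO-1334 in KO (0.0611 to 0.0708). Trex1 was listed at 0 in every library, and 100% of its exon bases are shared with Atrip on the same strand.

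Of 9 genes of interferon gamma and antigen processing, 3 were higher and 2 lower in CTRL and 4 and 2 in KO, also near the shares of all genes. The peptide transporter genes Tap1 (0.71 and 0.70) and Tap2 (0.60 and 0.59; in CTRL adjusted p = 0.107 without CTRL-350 and 0.145 without CTRL-1330) were higher in LSK, and the immunoproteasome gene Psmb8 (−1.03 and −1.06) and the myeloid factor Irf8 (−1.31 and −1.34) lower. B2m, the light chain of MHC class I, was not called (0.042 ± 0.12 and −0.091 ± 0.10, adjusted p = 0.783 and 0.449). Ly6a was higher in LSK (4.35 ± 0.19 and 3.39 ± 0.14), but its product Sca1 was the sorting antigen, so this is no finding; of its relatives, Ly6c2 was lower (−4.21 and −4.55) and Ly6e was not called (−0.062 and 0.12, adjusted p = 0.644 and 0.277). By genotype, 0 genes of these lists were called in GMP or in LSK by edgeR. In GMP, 9 of 9 antigen processing genes had negative values (median −0.37) and 8 of 9 sensing genes (median −0.28), against 48.8% of all genes and a median of 0.011. Cell type markers moved beside them in the same contrast: 9 of 10 GMP markers were negative (median −0.35), and 8 of 10 stem cell markers (median 0.30) and 8 of 8 mature neutrophil markers (median 0.76) positive, with none called; their part was not tested. In LSK the same lists had 8 of 9 and 2 of 9 negative, with medians of −0.19 and 0.069.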

How the data were processed

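Total RNA of 5 GMP and 5 LSK samples was sequenced with a stranded, ribosomal RNA-depleted kit, per the labels' protocols. The values used are the deposited raw read counts per Ensembl gene. Per the submitters' processing notes, the genome was mm10 (GRCm38) and the tools were HTSeq 0.5.3p3, STAR, DESeq2 1.4.5 and DESeq 1.18.0. Strand setting and annotation release are unknown (not given in the sources used here). Normalized tables, also deposited, hold a signal equal to the counts divided by a size factor per library, used only as an alternative scaling. Groups follow the sample titles. Apart from title numbers no label ties a library to its own animal, so p-values reflect only how these libraries vary, which may be technical.

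The tests ran in R 4.3.3 with edgeR 4.0.16: filterByExpr with a minimum count of 10, TMM, and the two-sided quasi-likelihood test, adjusted by Benjamini-Hochberg over every gene in the fit, with calls at 0.05. Genotype was fitted within each population, and all 10 libraries together for population and interaction. SE is the log2 fold change divided by the root of its F statistic. CPM is on the TMM scale of the joint table throughout; within a population this shifts libraries by at most 0.043 (log2) from the table's own scale. All 39 genes passed the filter in each fit. DESeq2 1.42.0, limma-voom (limma 3.58.1), other scalings, no filter, thinned counts and left-out libraries were the alternatives. The edgeR steps were tested on simulated data. Full statistics are given for Dnmt3a, the most abundant genes of each role, the smallest p per direction in each genotype comparison and the largest and smallest population differences, and statistics of other genes of the set were added after their values were seen. The genes and lists were chosen with earlier results of these data known. 1 gene of the signalling lists is not reported here.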

Additional observations from a re-analysis of the deposited data

How the results depend on the processing

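The population result kept its direction under every alternative run, though thinned counts could hardly turn it because thinning leaves expected ratios unchanged. In CTRL the number of genes of the set higher in LSK ranged from 24 to 30 over left-out libraries, with medians of 1.25 to 1.58, and was 19 (median 1.26) in male libraries alone; in KO it ranged from 24 to 28, and the number lower was 1 in male libraries alone. By genotype in GMP DESeq2 called 2 genes of the set, both higher, and in the interaction 1, lower; every other alternative called 0. The median of KO minus CTRL in LSK ranged from −0.38 to 0.019 over left-out libraries. Over all genes, calls in GMP numbered 6, against 703 with DESeq2, 0 with limma-voom, 50 without a filter, 205 after adjusting for reads that fell outside genes, 182 in the joint fit, 172 without KO-352 and 1 to 4 without another library; in LSK they numbered 4, against 19 with DESeq2, 27 without a filter, 11 without CTRL-1326, 7 without KO-1333 and 0 in the joint fit. Signs that turned belong to genes that were not called. For KO minus CTRL in LSK, Ifitm1 was −0.10 to 0.33 and Ifi35 −0.097 to 0.16 over left-out libraries. For LSK minus GMP in CTRL, Bst2 was 0.17 after upper quartile scaling, 0.0013 after thinning and −0.31 to 0.24 over left-out libraries, Stat2 −0.25 to 0.34 over left-out libraries and −0.25 in male libraries alone, and Ifnk −0.047 with limma-voom, −1.61 in male libraries alone and −1.61 to 0.82 over left-out libraries. For the same contrast in KO, upper quartile scaling gave 0.082 for Eif2ak2, 0.062 for Mx1 and 0.13 for Oas1a, thinning 0.023 for Mx1 and 0.045 for Oas1a, and limma-voom 0.061 for Oas1a and −0.041 for Ifnk, which was −1.73 in male libraries alone; over left-out libraries Ifi27 was −0.42 to 0.097, Mx1 −0.38 to 0.036, Oas1a −0.32 to 0.30 and Ifnk −0.31 to 0.52. The causes were not tested. No paired analysis was possible because no title number occurs in more than 1 group. Values of genes with few reads, such as Ifit3, Cxcl10 and Ifi44 in GMP, rest on small counts although GMP is the deeper table. Reads that did not align uniquely, 26.3% to 29.0% in GMP, were not counted for any gene. Their part in low values was not tested.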

Other observations

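Xaf1 fell at 2 levels within LSK. CTRL-1326 and KO-1333 had 11.8 and 11.4 CPM, and CTRL-1330, KO-1327 and KO-1334 had 35.3, 28.6 and 27.7. Each level held both genotypes and both sexes. In GMP the 5 libraries had 3.21 to 5.83 CPM.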
